A study of Mus musculus with 2 samples.

Results

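Neuropeptide S is encoded by the mouse gene Nps, and Npsr1 encodes its receptor. They are 2 of the 32285 features in matrices of unique molecular identifiers (UMIs, deduplicated RNA molecules) from single cells or nuclei of the locus coeruleus, and were taken as the rows with those symbols. The pair was chosen by its measured UMIs per barcode in these same libraries, so its levels are described and not tested. Library 1 (batch 1) and library 2 (batch 2) form 1 group with n = 2 and no treatment: C57BL/6N animals, wild type, males and females, at an age of 3 to 4 weeks. How many mice a library holds, and which of the described preparations (methanol-fixed dissociated cells or sorted nuclei) it used, is not in the labels. Every barcode is called a cell below.

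Neuropeptide S is a secreted peptide that is cut from a larger precursor and is named for its first residue, a serine. In rodents it is made by small groups of neurons in the brainstem, including cells beside the locus coeruleus and in the parabrachial region, and it is known for raising arousal while lowering anxiety-like behaviour. Its receptor is a G protein-coupled receptor that raises calcium and cyclic AMP in the cells that carry it.

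Nps (ENSMUSG00000073804) lies on the plus strand of chromosome 7 at chr7:135258703-135272942 in GRCm38, spans 14240 bp and overlaps no other annotated gene in GENCODE M21. The coding sequence of transcript Nps-201 has 270 bases in 3 exons between positions 135268639 and 135272372 of that chromosome, 89 codons before the stop. It is shown because it places the peptide at the end of the precursor. Capitals mark bases 208 to 267, the 20 codons of the secreted peptide, which follow directly on a lysine and an arginine codon, a usual cleavage site of peptide precursors.
Nps coding sequence: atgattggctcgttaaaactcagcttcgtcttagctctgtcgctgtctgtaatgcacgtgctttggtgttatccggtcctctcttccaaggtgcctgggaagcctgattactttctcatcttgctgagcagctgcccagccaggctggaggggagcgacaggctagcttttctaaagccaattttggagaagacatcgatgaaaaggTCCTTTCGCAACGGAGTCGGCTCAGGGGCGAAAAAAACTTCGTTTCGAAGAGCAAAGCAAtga

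Npsr1 (ENSMUSG00000043659) lies on the plus strand of chromosome 9 at chr9:24097996-24316398 in GRCm38 and spans 218403 bp, with 4 annotated transcripts. Its span overlaps Gm47674 and Gm15600 on the opposite strand, each with 0 UMIs in both libraries.

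The libraries had similar totals, 5600693 and 6895380 UMIs, but spread over 304 and 2796 barcodes, so library 1 was far deeper per barcode (medians of 11010 and 1517 UMIs). The filters kept 294 and 2680 cells. Neuronal clusters took in 198 and 1192 of them, at medians of 14338 and 2352 UMIs. No barcode sequence occurred in both libraries. Clusters were made from marker genes and took a class name, written as X-like, only where their summed counts carried that class's markers. Many neurons stayed in clusters with no class name.

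Nps was found in 10 barcodes, and its RNA was concentrated in a handful of them. Library 1 had 103 Nps UMIs in 3 barcodes, with 99, 3 and 1. Library 2 had 28 UMIs in 7 barcodes, with 13, 8, 3 and 4 times 1. A single cell thus held 96.1% of the Nps UMIs of library 1 and another held 46.4% of those of library 2. As a share of neurons, 1.52% in library 1 (exact 95% binomial interval 0.314 to 4.36) and 0.419% in library 2 (0.136 to 0.976) had at least 1 Nps UMI. The level over all neurons was 22.6 CPM (UMIs of the gene over all UMIs of the group, on the usual CPM scale) in library 1 (95% Poisson interval 18.4 to 27.4) and 6.04 CPM in library 2 (3.94 to 8.85). Such intervals cover counting error only and treat UMIs as independent, which UMIs of the same cell are not, so no difference between the libraries is read from them.

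**Figure D1:**
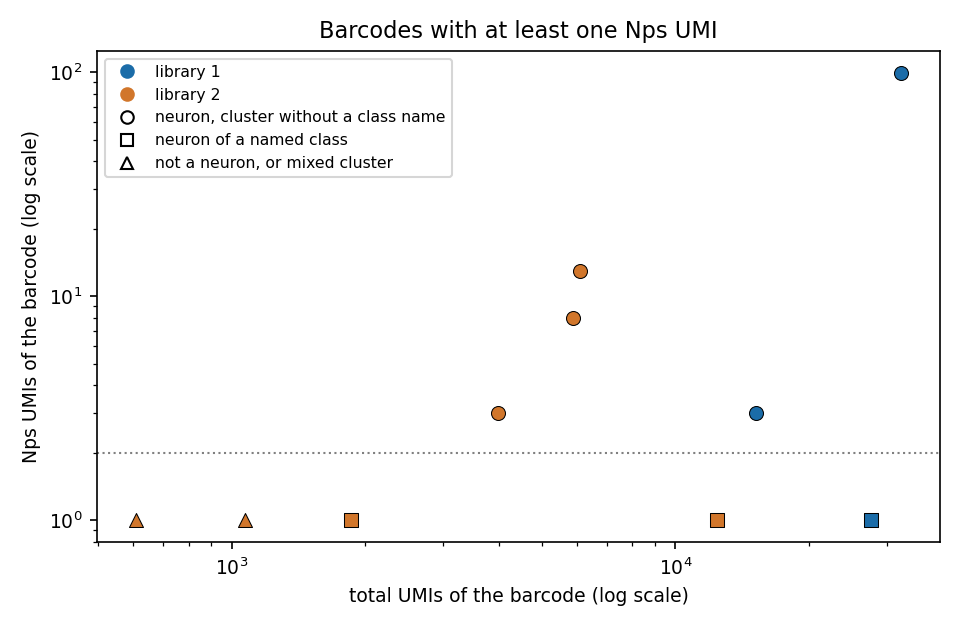
Nps UMIs of each barcode with at least 1 (y axis, log scale) against all UMIs of that barcode (x axis, log scale), coloured by library and shaped by the kind of cluster. The dotted line stands at 2 Nps UMIs. All 5 barcodes above it are neurons of clusters without a class name, and the 5 barcodes with 1 UMI are spread over other kinds of cell.

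The 5 barcodes with at least 2 Nps UMIs, 2 in library 1 and 3 in library 2, are called Nps cells below. All were neurons of clusters with no class name. With every deposited barcode kept and clustered, the 99 UMIs lay in a Purkinje-like cluster instead (23 cells of library 1, 243 CPM). The cell with 99 Nps UMIs (32297 UMIs in all, 3065 Nps CPM) was in cluster 10, the cell with 8 (5878 in all, 1361 CPM) in cluster 4, and those with 13 (6081, 2138 CPM) and with 3 (3974, 755 CPM, in library 2, and 15197, 197 CPM, in library 1) in cluster 3. The Nps level relative to the cell's own depth therefore ranged from 197 to 3065 CPM.

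The other 5 barcodes had 1 Nps UMI each and lay elsewhere: an excitatory-like neuron of library 1, and in library 2 a mesencephalic trigeminal-like neuron, an inhibitory-like neuron, an oligodendrocyte precursor-like cell and a cell of a mixed cluster with neuronal and oligodendrocyte markers. Outside neurons and that mixed cluster, 0 of 93 cells in library 1, which allows a share of up to 3.23%, and 1 of 1414 cells in library 2 (0.0707%) had Nps, at median depths of 7767 and 1193 UMIs. What a lone UMI of this gene stands for was not tested. By the rule of at least 2 UMIs, the barcodes with 1 UMI are not counted as Nps cells. Noradrenergic-like cells, the class that defines the nucleus, had 0 Nps UMIs among 12 cells of library 1 (a limit of 3.04 CPM) and 76 cells of library 2 (a limit of 4.16 CPM).

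The 5 Nps cells shared several transcription factor genes. Foxp2, a forkhead factor found in many parabrachial and other hindbrain neurons, had 18 and 8 UMIs in the Nps cells of library 1 and 11, 5 and 3 in those of library 2. It was present in all 5, whereas 33 of 210 other neurons whose depth lay in the range of the Nps cells of the same library (15.7%) had any. None of the 5 barcodes with 1 Nps UMI had Foxp2. Depth ranges were 15197 to 32297 UMIs in library 1 (51 other neurons) and 3974 to 6081 in library 2 (159).

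Meis2, a homeobox factor, was also in all 5 Nps cells, with 43, 4, 2, 5 and 2 UMIs in the order above (both cells of library 1 by falling Nps, then the 3 of library 2), against 41.4% of the other neurons of like depth. Pbx3, a partner of Meis proteins on DNA, had 6, 5, 1, 8 and 3 UMIs and was in 51.0% of the others. Tshz2, a zinc finger homeobox factor, had 30, 1, 4, 4 and 2 UMIs and was in 39.0%. Each of these 3 genes is common among neurons, so the 5 cells stand out less for any of them than for Foxp2. All 4 together, a combination picked after these cells had been seen, occurred in 6 of 198 neurons of library 1 and 9 of 1192 of library 2, and the Nps cells were 2 and 3 of those. Among the other neurons of like depth, 1 of 51 and 1 of 159 held all 4.

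Further factors were found in most but not all Nps cells. Nr4a2, an orphan nuclear receptor that also marks midbrain dopamine neurons, had 8, 1, 3, 0 and 1 UMIs and was in 10.0% of the other neurons of like depth. Irx2, an Iroquois homeobox factor, had 1 UMI in each of 3 Nps cells and was in 7.62% of the others. Meis1 (30.5% of the others), Dach1 (47.1%) and Zfhx3 (57.6%) were each in 4 of the 5 cells, and Myt1l, which most neurons carry (95.7%), was in all 5. In the cell with 99 Nps UMIs, 18 of the 79 listed transcription factors had a UMI, and those not yet named were Lhx9, Lhx2, Foxp1, Nfic, Zfhx4, Tshz1, Runx1t1 and Bcl11a. The other cell of library 1 had 12, Nfic and Zfhx4 among them. The cells of library 2 had 10, 13 and 12. Esrrg was in all 3 of them, Foxp1 in the cells with 8 and with 3 Nps UMIs, Zfhx4 in that with 13, and En1, Nfia, Nfic and Tshz1 in that with 8.

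Lhx9, a LIM homeobox factor of excitatory hindbrain neurons, had 12 and 2 UMIs in the Nps cells of library 1 and 0 in all 3 of library 2. At the depth of library 2 a level of less than 188 CPM, 3 UMIs over the 3 cells, would not be detected reliably. The level in library 1 was 295 CPM, but 12 of its 14 UMIs were in the cell with 99 Nps UMIs. The zeros of library 2 are therefore not read as a difference between the libraries. Lmx1b, Lmx1a, Pax2 and Tfap2b, which specify other neurons of the dorsal pons, had 0 UMIs in all 5 cells. They were in 6.19% (Pax2) to 27.1% (Tfap2b) of the other neurons of like depth.

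The fast transmitter of the Nps cells was read in library 1 only. Slc17a6, the vesicular glutamate transporter VGLUT2, had 7 and 4 UMIs in the Nps cells of library 1 and 0 in all 3 of library 2. In library 1 it was in 36 of 51 other neurons of like depth and in library 2 in 59 of 159. Those 159 include neurons of other kinds (40 had Gad2 and 22 had Dbh). Their share therefore does not tell how often Slc17a6 is missed at that depth in a neuron that carries it. Whether the 3 cells of library 2 lack it was not tested. Slc17a8, the transporter VGLUT3, had 1 UMI in the cell with 3 Nps UMIs of library 1, and Slc17a7 had none in any. Of the genes for GABA and glycine, Gad1, Slc32a1 and Slc6a5 had 0 UMIs in all 5 cells and Gad2 had 1 UMI, in the cell with 99 Nps UMIs. For the noradrenergic genes, that same deepest cell had 1 UMI each of Dbh, Slc6a2 and Ddc and 2 of Slc18a2, and the cell with 8 Nps UMIs had 1 of Slc18a2.

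**Figure D2:**
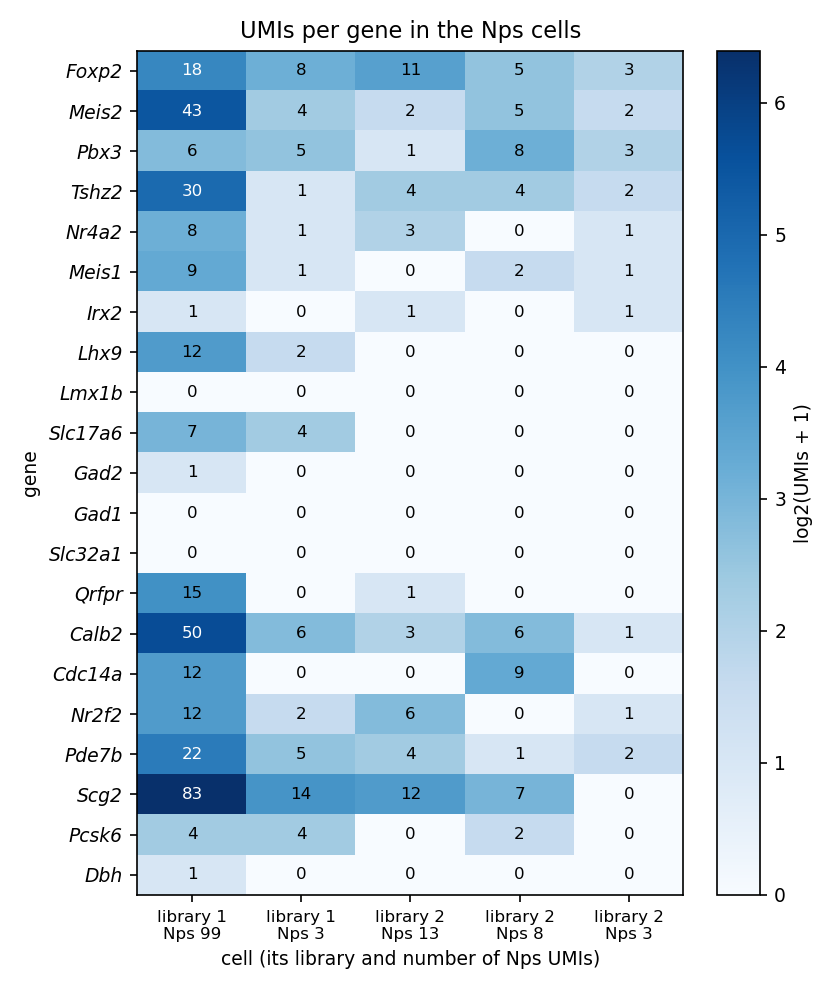
UMIs of transcription factor, transmitter, receptor and other named genes (rows) in each of the 5 Nps cells (columns, labelled by library and Nps UMIs). Numbers are UMIs and the colour is log2(UMIs + 1). Foxp2, Meis2, Pbx3 and Tshz2 are filled in every column, and Slc17a6 and Lhx9 in those of library 1 only.

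Summed markers of other cells were checked in the same 5 cells. The 10 pan-neuronal markers summed to 21034 and 22406 CPM in the Nps cells of library 1 and 2, against 18312 and 20081 CPM in the other neurons. The 8 noradrenergic markers summed to 105 and 62.8 CPM, against 9022 and 6694 CPM in noradrenergic-like cells. The 8 oligodendrocyte markers summed to 84.2 and 126 CPM (45716 and 26603 CPM in oligodendrocyte-like cells) and the 8 astrocyte markers to 168 and 314 CPM (98.0 and 89.8 CPM in the other neurons, 6499 and 5850 CPM in astrocyte-like cells). The 9 microglia or macrophage markers, of which 2 and 1 had a UMI, summed to 1032 and 565 CPM (613 and 456 CPM in the other neurons, 4040 and 2857 CPM in cells of that class). The 7 oligodendrocyte precursor markers summed to 295 and 753 CPM (344 and 416 CPM in the other neurons, 7272 and 5349 CPM in cells of that class). The 7 Purkinje markers, of which 4 and 1 had a UMI, summed to 442 and 126 CPM (248 CPM in the other neurons of each library). Markers of serotonergic and cholinergic neurons, endothelial cells, fibroblasts and red blood cells were at 0. The part of these markers in the results was not tested.

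To find other genes that set these neurons apart, the UMIs of the Nps cells were summed per library and compared with those of neurons without Nps by edgeR's quasi-likelihood test, with the library as a block. The test had been planned only for at least 3 cells per library and library 1 had 2, so the fit is an addition. Of 11013 genes tested, 19 were higher (0.173% of those tested) and 43 lower (0.39%) in the Nps cells at an adjusted p under 0.05. The median log2 fold of all genes was -0.79, since 3222 of them had no UMI in the Nps cells. With every neuron that had at least 1 Nps UMI, 3 and 5 cells, which met the minimum, 6 genes were higher (0.0539%) and 13 lower (0.117%). The 6 were Foxp2, Qrfpr, Calb2, Cdc14a, Nr2f2 and Pde7b, and all of them were among the 19. Qrfpr entered the test only through its UMIs in the Nps cells, as given below. The fit rests on 2 libraries and 1 residual degree of freedom. Beyond counting error, its p values measure how far the fold differs between these libraries, a spread that may be technical and is shared across genes. Variation between the single cells of a sum is not measured.

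Foxp2 reached 547 and 1193 CPM in the Nps cells of library 1 and 2 and 44.1 and 49.6 CPM in the other neurons. Its log2 fold was 3.61 ± 0.51 (SE, adjusted p = 5.8e-09, edgeR). It passed in all 11 alternative settings that tested it. Without the cell of 99 Nps UMIs, a setting added after the data had been seen, Foxp2 still rose by 3.48 (adjusted p = 4.0e-05), and of the 19 genes only it and Phactr1 (2.18, adjusted p = 0.011) passed as higher (0.0183% of 10914 genes tested), while 20 genes passed as lower (0.183%). Phactr1, a regulator of protein phosphatase and actin that is named here after its values were seen, had 27, 24, 16, 28 and 17 UMIs in the 5 cells and was in 79.0% of the other neurons of like depth. Its log2 fold was 2.06 ± 0.41 (adjusted p = 2.5e-04), but it did not pass with 1 Nps UMI as the minimum (1.57, adjusted p = 0.12).

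Qrfpr, the receptor for the RFamide peptide QRFP, had 15 UMIs in the cell with 99 Nps UMIs and 1 in the cell with 13, and 0 in the other 3. It was in 0 of the 210 other neurons of like depth and had 4 and 1 UMIs in all 195 and 1187 other neurons of the libraries. The log2 fold was 8.00 ± 1.26. At 0.891 and 0.234 CPM in the other neurons, the gene entered the test only through its UMIs in the Nps cells. A rise was thus built in, and its p is not read as support. This rise is mostly that of 1 cell, and without that cell Qrfpr had too few counts to be tested.

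Calb2, the calcium-binding protein calretinin, was in all 5 Nps cells with 50, 6, 3, 6 and 1 UMIs and in 29.5% of the other neurons of like depth. Its level was 1179 and 628 CPM in the Nps cells and 126.5 and 50.0 CPM in the other neurons. The log2 fold was 2.96 ± 0.48 (adjusted p = 1.0e-06). Pde7b, a phosphodiesterase that breaks down cyclic AMP, was also in all 5, with 22, 5, 4, 1 and 2 UMIs, and rose by 2.75 ± 0.56 (adjusted p = 4.9e-04). Nr2f2, the nuclear receptor COUP-TFII, had 12, 2, 6, 0 and 1 UMIs and rose by 4.15 ± 0.78 (adjusted p = 8.2e-05). Cdc14a, a protein phosphatase, had 12, 0, 0, 9 and 0 UMIs, 1 cell in each library, and rose by 4.63 ± 0.82 (adjusted p = 2.1e-05). Without the cell of 99 Nps UMIs the folds of these 4 genes were 2.02 (Calb2), 2.01 (Pde7b), 3.74 (Nr2f2) and 4.04 (Cdc14a) and none passed, with adjusted p from 0.30 to 0.57.

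The remaining named rises did not pass when neurons with 1 Nps UMI were included. They were Nxph1, a neurexin ligand, with a log2 fold of 2.19 ± 0.44, the transcript 9530026P05Rik with 2.72 ± 0.58, Arhgap6 with 2.75 ± 0.67, Clrn1 with 5.99 ± 1.64 from 6 UMIs in 2 cells, and Scg2. Clrn1, at 1.34 and 0.702 CPM in the other neurons, also entered the test only through the Nps cells. Arhgap6, like Foxp2, was in all 5 Nps cells and in under 25% of the other neurons of like depth (17.1%), which held for 4 of the 520 genes found in all 5, Nps included. Lhx9 was called (3.86 ± 0.99, adjusted p = 0.020) although its fold was 4.28 in library 1 and -3.48 in library 2, where it had no UMI in the Nps cells.

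**Figure D3:**
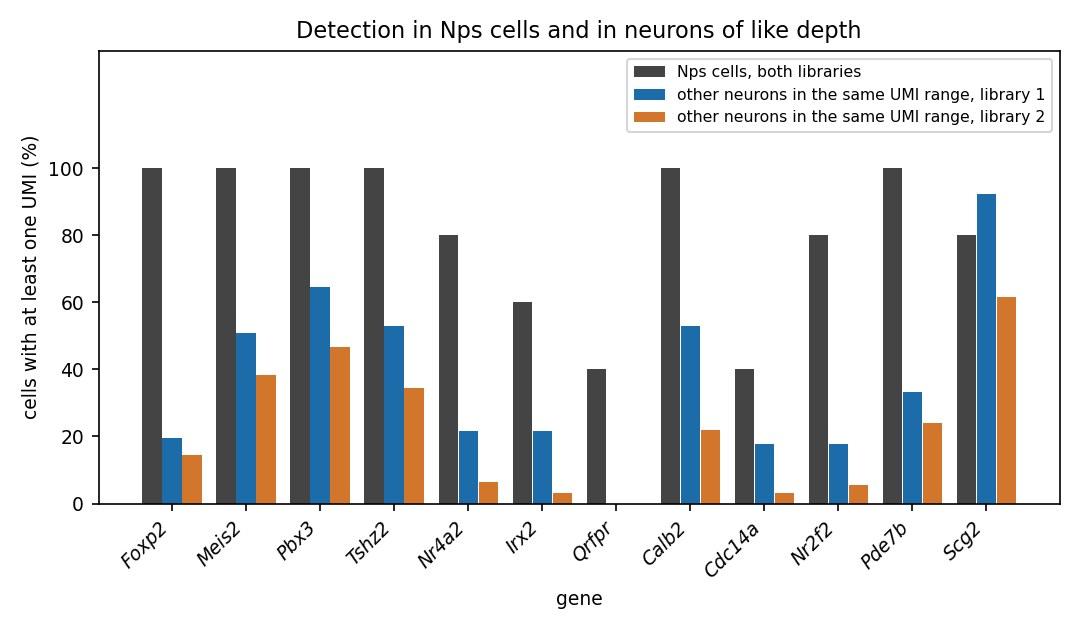
Share of cells with at least 1 UMI (y axis, percent) for 12 genes in the 5 Nps cells of both libraries (dark bars) and in other neurons of the same depth range, 51 in library 1 (blue) and 159 in library 2 (orange). Foxp2 stands at 100% against 19.6% and 14.5%, and Qrfpr at 40.0% against 0 in both.

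Among the genes that fell, the noradrenergic genes Slc6a2 (noradrenaline transporter), Slc18a2 (vesicular monoamine transporter) and Dbh (noradrenaline synthesis) had ratios over both libraries of 0.0314 (95% interval 0.000795 to 0.175), 0.0716 (0.0148 to 0.209) and 0.0601 (0.00152 to 0.335), from 1, 3 and 1 UMIs in the Nps cells. The other neurons of this comparison include the noradrenergic-like cells. Slc6a2 was at 2893 and 2022 CPM in those cells and at 645 and 352 CPM over all other neurons of library 1 and 2. Against neurons of like depth Slc18a2 did not pass (adjusted p = 0.999) and the other two had too few counts to be tested. With 1 Nps UMI as the minimum each passed (edgeR adjusted p 4.7e-08, 8.7e-07 and 1.6e-04 in the same order). DESeq2 did not call Dbh (adjusted p = 0.19). Nefh, a neurofilament gene of large axons, and Piezo2, a mechanically gated channel, both high in trigeminal neurons, had no UMI in the Nps cells and were at least 6.48-fold and 4.78-fold lower than in the other neurons, against a floor of 3 UMIs over both libraries. Nefh did not pass against neurons of like depth either (adjusted p = 0.83), and neither gene passed with 1 Nps UMI as the minimum (adjusted p = 0.9996).

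Other falls also held at like depth. Ebf1 and Ebf2, helix-loop-helix factors of several neuron groups, had no UMI in the 5 cells and were at least 6.25-fold and 3.86-fold lower (adjusted p at like depth 1.5e-04 and 3.0e-04), and Ebf3 at least 3.01-fold (9.7e-04). The same was true of Efna5, an ephrin ligand (at least 5.56-fold, 1.1e-05), Htr2c, a serotonin receptor (at least 4.96-fold, 8.1e-06), and Zfp804a (at least 5.21-fold, 1.5e-04). With 1 Nps UMI as the minimum, Ebf2, Efna5 and Htr2c passed. Ebf1, Ebf3 and Zfp804a did not (adjusted p 0.9996, 0.074 and 0.9996). DESeq2 called Ebf1 and Efna5 (adjusted p 0.032 and 0.045). It did not call Ebf2 (0.98), Htr2c (0.95), Zfp804a (0.94) or Ebf3 (0.28). Of these genes, only Efna5 passed at like depth, with 1 Nps UMI as the minimum and with DESeq2. Lingo2, a leucine-rich repeat membrane protein named after its values were seen, had the smallest p. Its level was 21.1 and 62.8 CPM in the Nps cells, from 1 UMI in each library, and 1407 and 1400 CPM in the other neurons, a ratio of 0.0225 (0.00272 to 0.0812). It did not pass with 1 Nps UMI as the minimum (adjusted p = 0.22). Rbms3, an RNA-binding protein named in the same way, had 4 UMIs in the Nps cells and a ratio of 0.0587. Its log2 fold of -4.50 became -0.88 with 1 Nps UMI as the minimum (adjusted p = 0.9996), and DESeq2 did not call it either (adjusted p = 0.21). The other named falls were Arpp21, Ubash3b and Dlk1, each with no UMI in the Nps cells and at least 3.53-fold to 3.63-fold lower, and Zfhx3, with a log2 fold of -2.76 ± 0.61 and 4 of 5 cells still holding it. None of Arpp21, Ubash3b and Dlk1 passed at like depth. With 1 Nps UMI as the minimum Dlk1 passed, whereas Arpp21, Ubash3b and Zfhx3 did not (adjusted p = 0.9996), and the fold of Zfhx3 was -0.48.

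Seen by list, most members did not pass. Over all 11013 genes tested, 0.173% rose and 0.39% fell. In lists this short, 1 called member is already a share above these. This held for every list with a call, in the direction of that call. The lists were chosen with earlier results of these data known, so the counts are descriptions. Of the 55 hindbrain transcription factors tested, 2 rose (Foxp2 and Lhx9), 4 fell (Ebf1, Ebf2, Ebf3 and Zfhx3) and 49 did not pass. With 1 Nps UMI as the minimum, only Foxp2 and Ebf2 of the 6 factors named here passed, and DESeq2 did not call Ebf2. 35 of these 55 had no UMI in the Nps cells. Of 7 fast transmitter genes tested none passed, and of 11 amine and acetylcholine genes 3 fell and 8 did not pass. Among 20 neuropeptide receptors Qrfpr rose, a gene tested only because of its UMIs in the Nps cells, and 19 did not pass. With genes without a UMI set to their bound, or to 0 where even the bound is below 1-fold, the median log2 fold was 0 for the transcription factors and the receptors, -0.10 for the fast transmitter genes and -0.38 for the amine genes, and 0 for all genes tested. These medians are descriptions.

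The genes that make and pack a peptide were all found in the Nps cells, and most did not pass. Of 17 peptide processing and granin genes, all of them tested, 1 rose and 16 did not pass, with a median log2 fold of -0.06. Over all genes tested 0.173% rose. The riser was Scg2, secretogranin II of dense-core vesicles, with 83, 14, 12, 7 and 0 UMIs in the 5 cells, levels of 2042 and 1193 CPM against 428 and 293 CPM, and a log2 fold of 1.70 ± 0.41 (adjusted p = 0.010). It passed against neurons of like depth (adjusted p = 1.5e-04) and not with 1 Nps UMI as the minimum (0.52). Pcsk2, a convertase that cuts peptide precursors, had 6, 4, 2, 5 and 1 UMIs, and Pcsk1, its partner enzyme, 2, 1, 3, 1 and 0. Cpe, the carboxypeptidase that trims the cut ends, had 15, 13, 3, 3 and 1, and Pam, which amidates peptides, 26, 0, 2, 4 and 0. Pcsk6, another convertase, was in 3 of 5 cells and in 11.0% of the other neurons of like depth.

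No second neuropeptide was shared by the 5 cells. Of 12 tested precursor genes none passed in either direction. Nucb2, the precursor of nesfatin, had 7, 3, 0, 0 and 1 UMIs and was in 12.9% of the other neurons of like depth. Sst (somatostatin) had 4 UMIs in the cell with 99 Nps UMIs and 1 in that with 8. Gal (galanin) had 1 UMI in each of 2 cells, and Pnoc (nociceptin) had 4 in the fullest cell. Among receptors, Hcrtr2, an orexin receptor, had 2 UMIs in the cell of library 1 with 3 Nps UMIs and 3 in that of library 2 with 3, and was in 16.7% of the others. Npsr1 had 0 UMIs in all 5 cells, and no barcode in either library held both Nps and Npsr1.

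Npsr1 was found in more cells than Nps. Its fullest cell had 6 UMIs, against 99 and 13 Nps UMIs in the fullest Nps cells of library 1 and 2. A count of 1 UMI was common for both, with 5 of the 10 Nps barcodes at that count. Library 1 had 22 UMIs in 12 barcodes, with 6, 4 and 3 in 3 of them and 1 in each of 9. Library 2 had 23 UMIs in 18 barcodes, with 3, 2, 2 and 2 in 4 of them and 1 in each of 14. The filters removed 1 barcode of library 1 and 2 of library 2, 1 of which had 2 UMIs. In neurons the level was 4.16 CPM (95% Poisson interval 2.51 to 6.50) and 4.64 CPM (2.84 to 7.17), and these intervals overlapped. Among neurons 4.55% in library 1 (9 of 198) and 1.34% in library 2 (16 of 1192) had a UMI. The corresponding shares were 2.15% (2 of 93) and 0 of 1414 (which allows up to 0.212%) in other cells, at lower depth, with medians of 7767 and 1193 UMIs. The medians of the neurons were 14338 and 2352 UMIs, so the shares are set side by side and not compared. Thinned to 1000 UMIs per cell, 0 of 198 and 6 of 1004 neurons (0.598%) still had one, with 188 shallower neurons of library 2 left out.

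By class, Npsr1 was at 14.4 CPM (5.77 to 29.6) and 13.8 CPM (5.98 to 27.3) in inhibitory-like neurons, from 7 UMIs in 2 of 31 cells and 8 UMIs in 6 of 195. Neurons without a class name had 6.49 CPM (3.11 to 11.9) and 5.30 CPM (2.42 to 10.1). Of them, cluster 3, led by Il1rapl2 and the glutamate gene Slc17a6, had 8.86 and 7.22 CPM, from 9 UMIs in 4 of 50 cells and 4 UMIs in 3 of 124. Excitatory-like neurons, led by Lmx1b and Ebf2, had 0 (a limit of 5.24 CPM) and 4.61 CPM (0.952 to 13.5). Noradrenergic-like cells had 2.02 CPM in library 1 (0.245 to 7.31), as 1 UMI in each of 2 cells with 72004 and 128440 UMIs, and 0 in library 2 (a limit of 4.16 CPM). Npsr1 had 0 UMIs in both libraries in mesencephalic trigeminal-like (limits of 4.12 and 4.97 CPM), cerebellar granule-like (12.1 and 53.5) and oligodendrocyte-like cells (7.55 and 2.58). The same held for astrocyte-like (34.6 and 10.4), ependymal-like (10.4 and 14.3) and microglia- or macrophage-like cells (713 and 119). With at least 500 genes per cell, trigeminal-like cells of library 2 had 2 UMIs (3.22 CPM). With every barcode kept, they had 2 UMIs (2.56 CPM) and oligodendrocyte-like cells of library 2 also had 2 (1.66 CPM). Vascular-like and oligodendrocyte precursor-like cells had 1 UMI each in library 1, which in 10 and 11 cells came to 13.4 CPM (0.340 to 74.9) and 12.8 CPM (0.325 to 71.5), and 0 in library 2.

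The intervals of the inhibitory-like neurons overlapped those of the unnamed and the excitatory-like neurons in both libraries. The excitatory-like intervals were 0 to 6.45 CPM in library 1 and 0.952 to 13.5 CPM in library 2. Overlap was also seen with noradrenergic-like and oligodendrocyte-like cells in library 1 and with trigeminal-like cells in library 2. Granule-like, astrocyte-like, ependymal-like, vascular-like, microglia- or macrophage-like and oligodendrocyte precursor-like cells overlapped in both. In library 1, 1 cell had 6 of the 7 UMIs of the inhibitory-like neurons.

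**Figure D4:**
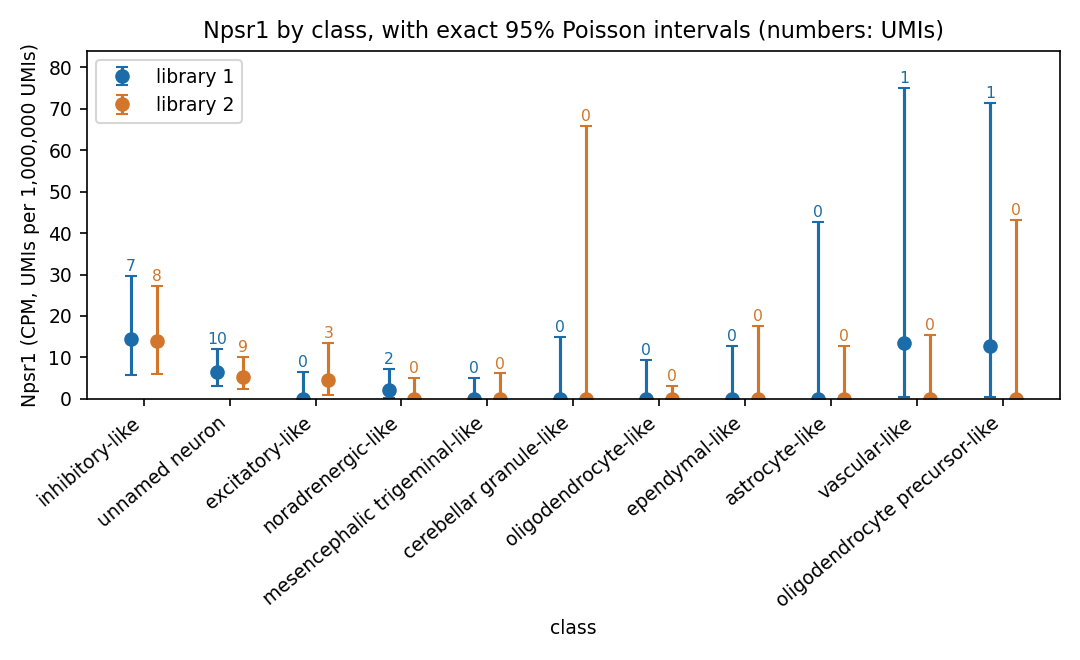
Npsr1 level (y axis, CPM) by class (x axis) in library 1 (blue) and library 2 (orange). Points are summed levels, bars are exact 2-sided 95% Poisson intervals, also at 0 UMIs, and the numbers are UMIs. Inhibitory-like neurons stand at 14.4 and 13.8, and the wide bars of the classes on the right come from few cells.

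Fast transmitter genes of both kinds were found among the Npsr1 neurons. Of the 9 in library 1, 4 had glutamate transporter genes only, 2 had GABA or glycine genes only and 3 had both. A UMI here does not set the transmitter of a deep cell. The noradrenergic-like cell of 128440 UMIs (227 of Dbh) counts as GABA only through 1 UMI of Gad1. That of 72004 UMIs (113 of Dbh) counts as both, with 2 UMIs of Slc17a6, 5 of Slc17a7, 1 of Gad1 and 4 of Gad2. Of the 16 in library 2 these numbers were 6, 6 and 0, and 4 had neither. The cell with 6 Npsr1 UMIs had 6 UMIs of Gad2, 3 of Slc6a5 and 1 each of Gad1 and Slc17a6, and those with 4 and 3 in library 1 had 9 and 7 UMIs of Slc17a6 and no GABA or glycine gene. In library 2, the cell with 3 Npsr1 UMIs had 2 UMIs of Gad1 and 1 of Gad2, and the kept cells with 2 had 1 and 2 UMIs of Slc17a6. The level per transmitter group was 3.38 and 5.15 CPM in neurons with glutamate genes only, 2.73 and 9.87 CPM with GABA or glycine genes only, 10.5 and 0 CPM with both and 0 and 2.34 CPM with neither. No group was highest in both libraries. The 2.73 CPM of library 1 came from 2 UMIs, 1 of them in the noradrenergic-like cell of 128440 UMIs.

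The summed UMIs of the Npsr1 neurons, 9 and 16 cells, were compared with those of the other neurons by the same test. Of 11474 genes 7 were higher (0.061%) and 36 lower (0.314%). In the 5 named risers much of the count was in single cells. Nos1, neuronal nitric oxide synthase, had a log2 fold of 2.19 ± 0.44 (adjusted p = 3.8e-04), but 44 of its 45 UMIs in library 2 were in 1 cell, and its fold was -0.15 in library 1, -1.27 with at least 2 Npsr1 UMIs as the minimum and -1.12 with single-UMI neurons left out. Prima1, which anchors acetylcholinesterase (3.23 ± 0.69, adjusted p = 1.7e-03), had 12 of 13 UMIs of library 2 in 1 cell, and its fold was -6.87 with at least 2 Npsr1 UMIs. Acly, which makes acetyl-CoA (1.53 ± 0.36, adjusted p = 0.010), had 40 of 41 in 1 cell of library 2 and 52 of 91 in 1 of library 1. Its fitted fold turned to -11.27 and -11.10 in the settings with at least 2 Npsr1 UMIs and with single-UMI neurons left out. A fold of about that size was also fitted to Ebf3 in the Nps cells (-11.31), which had no UMI there. The sizes of these folds of Acly and Prima1 are not read as levels. Rtl1 (1.83 ± 0.49, adjusted p = 0.0498) had 22 of its 31 UMIs of library 1 in 1 cell. Calca, which encodes CGRP (1.73 ± 0.46, adjusted p = 0.0498), had 54 of 74 UMIs in 1 cell of library 1 and 0 in library 2, and its fold was -1.65 and -1.37 in those settings. DESeq2 called 0 genes (0.0% of those tested, 121 at an unadjusted p under 0.05).

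Among the named falls, Piezo2, Prph, Runx1 and Anxa2 are leading genes of the trigeminal-like cluster, which had no Npsr1 UMI in the clustering used for the test. Piezo2 had a ratio of 0.0111 (0.000282 to 0.0621), from 1 UMI in the Npsr1 neurons. The transcription factor Runx1 and the annexin Anxa2 had no UMI and were at least 9.09-fold and 7.90-fold lower. Prph (peripherin) and Pvalb (parvalbumin) had 1 UMI each, with ratios of 0.0380 (0.000960 to 0.212) and 0.0318 (0.000804 to 0.178). Creb5 was at least 10.5-fold lower, and Arhgef3, Gm765, Plekhd1 and Lncppara at least 3.48-fold to 4.26-fold lower. Plekhd1 and Lncppara passed narrowly (adjusted p = 0.0498 for each). Lncppara passed in none of the 10 other settings that tested it and Plekhd1 in 3 of 9. With noradrenergic-like, trigeminal-like and granule-like cells left out of both groups, a setting chosen after the data had been seen, 1 gene passed of 10106 (0.0099%), Zfp804b (lower, -2.59, adjusted p = 0.012).

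Of 32 tested signalling genes, which cover G protein subunits, phospholipases, adenylyl cyclases and kinases, none passed in either direction in the Npsr1 neurons (2 at an unadjusted p under 0.05) and their median log2 fold was -0.10, against -0.06 for all genes. In the Nps cells, where 0.39% of all genes tested fell, 1 of 32 did. This was Prkcb, a protein kinase C, with a ratio of 0.154 (0.0317 to 0.450) from 3 UMIs. It did not pass with 1 Nps UMI as the minimum (adjusted p = 0.9996), without the cell of 99 Nps UMIs (0.27) or with DESeq2 (0.25). Of the other lists in the Npsr1 neurons, Nos1 rose among 12 amine and acetylcholine genes, Calca among 16 precursors and Runx1 fell among 59 transcription factors. Over all 11474 genes tested, 0.061% rose and 0.314% fell. None of 7 fast transmitter genes, 20 peptide receptors and 17 processing genes passed.

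Across the 15 clusters with at least 5 cells in each library, the genes whose levels were most like those of Nps were C1ql3, Gm10848, Ano5, Oprk1 and Sept5. The lower of the Pearson correlations of the 2 libraries, on log2(CPM + 5), ran from 0.66 to 0.51. For Npsr1 they were Ephb6, Kcnt2, Gtpbp4, Gm8098 and Yaf2, with 0.64 to 0.59. The clusters share libraries and depth, 12201 genes were compared, and most points of both genes lie near 0, so these are descriptions only.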

How the data were processed

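RNA of the locus coeruleus was counted per cell in 2 droplet libraries of 1 group of mice. The authors deposited raw counts, that is, not normalized UMIs as whole numbers. Per the submitters' processing notes Cell Ranger 7.0 and Seurat were used with mm10 and GRCm38, and per the file headers the matrices came from cellranger 6.1.2. The use of intronic reads is not given in the sources used here. The smallest barcodes held 4208 (library 1) and 500 UMIs (library 2), which shows that cells were called upstream. The series text speaks of 2578 cells, while the files hold 3100 barcodes and the filters here left 2974.

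The filter on barcodes was 300 genes or more and mitochondrial UMIs of 20% or less. The highest Scrublet scores were removed, 0.8% per 1000 barcodes (1 and 60). Counts were scaled to 10000 and log-transformed (scanpy 1.11.5, Python 3.11.15), and clustered on 148 marker genes with 20 components, 15 neighbours and Leiden resolution 1.0, which gave 23 clusters. A cluster was neuronal at 5000 CPM or more of 10 pan-neuronal markers. It took a name from at least 3 markers at 10 CPM and a log2 ratio of 2 over the median cluster. A cluster that was neuronal by level but named for glia was called mixed and not counted as neuronal.

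UMIs were summed per library and compared with edgeR 4.0.16 (quasi-likelihood, TMM, filterByExpr, limma 3.58.1, R 4.3.3), two-sided, with Benjamini-Hochberg adjustment over all genes and a threshold of 0.05. The number marks the library from which both sums of a pair were drawn, so the library was the block. DESeq2 1.42.0 was an alternative. Named genes were the 10 largest rises and falls with the same sign in both libraries and at least 20 CPM, and up to 4 called members per list and direction. For a single library the fold is the difference in log2 CPM. Neurons with exactly 1 Nps UMI were left out of both groups in the fit of Nps cells. Levels are CPM with exact 95% Poisson intervals, shares have exact binomial intervals, and a count of 0 allows up to 3. Only the main fit of each comparison was run on simulated counts with known folds. Those counts had no single cell that dominates a sum, so that run says nothing about genes where 1 cell does. The genes, lists and rules were chosen with earlier results of these data known. Sequence and positions came from GENCODE M21.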

Additional observations from a re-analysis of the deposited data

How the results depend on the processing

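The level of Nps in neurons ranged from 6.04 to 22.6 CPM when either library was left out, and that of Npsr1 from 4.16 to 4.64 in neurons, 13.8 to 14.4 in inhibitory-like and 0 to 2.02 in noradrenergic-like cells. The mean of the libraries for Npsr1 in inhibitory-like neurons, 14.1 CPM, became 13.3 with at least 500 genes per cell, 14.5 with 2 times the doublets removed, 15.1 at resolution 2.0 and 13.6 with every barcode. The mean share of thinned neurons with Npsr1 was 0.299% at 1000 and 1.27% at 2000 UMIs.

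For the Nps cells 62 genes passed. There were 201 with no replicate block, 122 against excitatory-like neurons alone, 19 with 1 Nps UMI as the minimum (17 of them shared) and 22 without the cell of 99 Nps UMIs (16 shared). DESeq2 gave 61, of which 33 were shared, with 45 higher and 16 lower in place of 19 and 43. For the Npsr1 neurons 43 passed. There were 6 with no replicate block, 0 with DESeq2, 179 against excitatory-like neurons, 8 with at least 2 Npsr1 UMIs, 1 without noradrenergic-like, trigeminal-like and granule-like cells and 9 without single-UMI neurons. With 1 library left out no test remains, only a fold. The cause was not tested.

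Folds that turned were Slc18a2 in Nps cells (0.73 against excitatory-like neurons) and Lhx9 (-3.48 and 4.28 without replicate 1 and 2). In Npsr1 neurons they were Nos1 (3.75 and -0.15 without replicate 1 and 2, -1.27 with at least 2 UMIs, -1.12 without single-UMI neurons), Prima1 (-6.87 with at least 2 UMIs), Acly (-11.27 and -11.10 in those same settings) and Calca (-4.31 and 2.32 without replicate 1 and 2, -1.65, -1.37 in the same settings and -0.85 without the 3 named classes). As above, the sizes of the folds of Prima1 and Acly are not read as levels. Depth limits both Nps and Npsr1, since most Npsr1 cells rest on 1 UMI.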
